A study of Rattus norvegicus with 172 samples.

Results

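The comparison described here is the step from day 1 to day 3 in the cord just above an untreated transection. It uses 6 of the 172 arrays of the series, chosen by their labels: lesion control, rostral segment, 3 days after the operation (3 arrays) against the same arm and segment 1 day after it (3 arrays). The rats were adult female Wistar of 2 months, and in all groups but normal cord the thoracic cord was cut and a 5 mm piece removed. Lesion control animals received no implant, tube alone animals an empty chitosan tube, and NT-3 tube animals an NT-3-chitosan tube, NT-3 being a neurotrophic factor. The rostral segment is the 5 mm of cord above the gap, taken with its dura and meninges, and RNA of 4 animals was pooled for every array of injured tissue. Uninjured cord (normal cord, 3 arrays) gives a level without injury, and its values follow those of day 3 and day 1. Its Hox genes, given below, differed from those of the injured segment. P-values measure the spread between such pools, and precision is limited by how few arrays there are.

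Injury of the cord sets off reactions that follow each other in time. Damaged tissue and its resident cells release cytokines and chemokines within hours, neutrophils arrive first, and monocytes follow and become macrophages. Resident microglia, astrocytes, oligodendrocyte precursors, vessel cells and fibroblasts of the meninges and vessel walls divide and remodel the border of the lesion, while neurons near the cut lose axons, targets and transmission. In tissue RNA, fewer cells of a type and less RNA per cell cannot be told apart.

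The arrays measured RNA with Affymetrix probe sets, and every level below is a log2 RMA value, so that a difference of 1 is a 2-fold change. A change is the day 3 mean minus the day 1 mean (n = 3 arrays each), given with its standard error. That error rests on a spread estimated over all groups in the fit. It can be smaller or larger than the spread of the day 3 and day 1 arrays alone. Rises and falls are those with a limma p under 0.05 after adjustment over all 11553 genes tested. Arrays of 1 group resembled each other, with mean correlations over genes of 0.9815 to 0.9873 on day 3, 0.991 to 0.9918 on day 1 and 0.9823 to 0.989 in normal cord. The first day 1 array stood above the other two in several early inflammatory genes, and results that rest on it are given with and without it. Defining genes of cord tissue were present on all arrays: members of the neuron list averaged 10.91 to 11.07 on day 3, 11.42 to 11.53 on day 1 and 11.77 to 11.93 in normal cord, and those of the myelin list 11 to 11.17, 10.96 to 11.22 and 11.55 to 11.61.

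On day 3, 2165 genes were higher than on day 1 (18.7% of those tested) and 1677 were lower (14.5%). Changes of at least 2-fold ran mostly upward, with 332 rises (2.87%) and 60 falls (0.519%). The median change over all genes tested was 0. Among the called genes, the 3 day 3 arrays lay wholly above the 3 day 1 arrays for 2021 rises and wholly below them for 1558 falls, while 43.6% of all tested genes had arrays that did not overlap. Leaving out the first day 1 array left fewer falls than leaving out any other, and over the 6 arrays left out in turn 1645 to 2015 genes rose and 1066 to 1529 fell.

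The largest rises were mostly in genes of dividing cells, with macrophage and connective tissue genes among the others. Fcrl2, an Fc receptor-like gene, had 10.37, 10.03 and 10.02 on day 3, against 5.64, 5.53 and 7.29 on day 1 and 4.87 to 4.96 in normal cord. The groups were far apart, although the third day 1 array had already left the level of the other two. The change was 3.99 ± 0.21 (adjusted p = 5.61e-20), and 1 probe set measured the gene. Ccnb2, the mitotic cyclin B2, had 9.73, 9.86 and 9.59 on day 3, against 6.03, 6.57 and 6.75 on day 1, a rise of 3.28 ± 0.21 (adjusted p = 2.34e-16). In normal cord Ccnb2 lay between 5.48 and 5.86, just below its day 1 arrays. Of the other 10 genes among the 12 largest rises, 6 serve chromosome segregation or division: Pimreg (3.20 ± 0.24), Mki67 (2.90 ± 0.32), Ect2 (2.88 ± 0.27), Cenpw (2.73 ± 0.25), Cdkn3 (2.72 ± 0.27) and Kif23 (2.70 ± 0.22). A second probe set of Kif23 gave 0.35, so the size of that rise depends on the probe set. Fam111a, a protease that acts at replication forks, rose by 2.65 ± 0.27. Outside division, Aspn (asporin, a small proteoglycan of connective tissue) rose by 3.03 ± 0.70, Fabp4 (a fatty acid carrier of adipocytes and macrophages) by 3.02 ± 0.61 and Mmp12 (macrophage elastase) by 2.94 ± 0.64.

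The largest falls were in signals of the first day. Il6, the gene of interleukin-6, had 5.20, 5.81 and 5.73 on day 3, against 10.74, 9.11 and 9.10 on day 1 and 3.84 to 4.11 in normal cord. It fell by 4.07 ± 0.35 (adjusted p = 7.09e-13) and on day 3 still lay above all 3 normal arrays. Pcdh20, a protocadherin of cell contacts, behaved differently: it had 7.12, 6.76 and 6.77 on day 3, against 9.73, 10.02 and 9.65 on day 1 and 8.21, 7.87 and 7.89 in normal cord. Its 3 day 3 arrays lay below normal cord and its 3 day 1 arrays above it. The change was -2.92 ± 0.26 (adjusted p = 8.3e-13), and a second probe set gave -3.22. Il1r2, the decoy receptor of interleukin-1, fell by 3.12 ± 0.47. The other genes among the 12 largest falls were 5 chemokine genes (Cxcl2, Cxcl1, Cxcl13, Ccl20 and Cxcl3), the acute-phase gene Saa3, the neutrophil gene S100a8 and the protease inhibitors Tfpi2 (-1.81 ± 0.23) and Slpi (-1.78 ± 0.47).

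**Figure D1:**
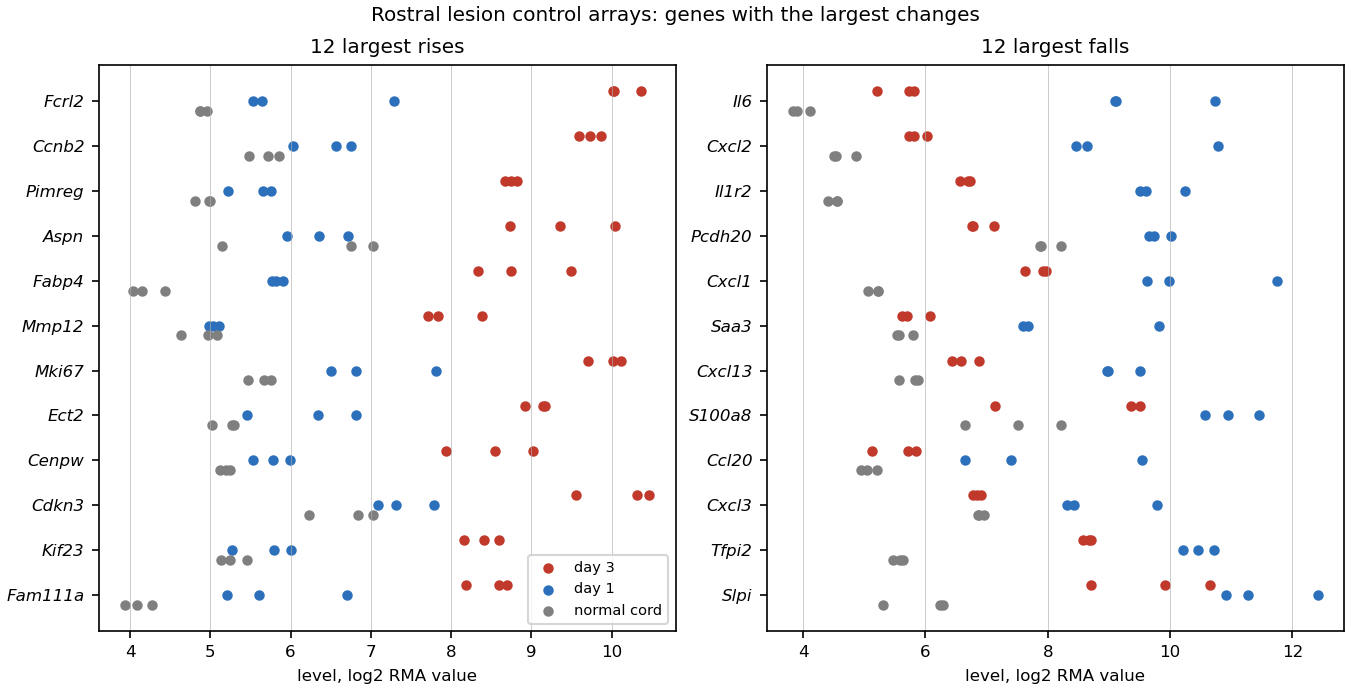
Levels of the 12 genes with the largest rises and the 12 with the largest falls on each rostral lesion control array (log2 RMA value, x axis), with day 3, day 1 and normal cord as 3 colours and 1 point per array. Ccnb2 lies at 6.75 or below on day 1 and at 9.59 or above on day 3, while Il6 lies above 9 on day 1 and below 6 on day 3.

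Genes of the cell cycle rose together. Of 28 tested members of the cell cycle and mitosis list 27 rose and none fell, with a median change of 2.12, against 18.7% of all genes and a median of 0. The mean level of the list was 8.65 to 8.93 on the day 3 arrays, 6.60 to 7.14 on the day 1 arrays and 6.22 to 6.28 in normal cord. Mki67, the proliferation antigen Ki-67, had 10.01, 10.12 and 9.70 on day 3, against 6.5, 6.81 and 7.81 on day 1. Top2a, the topoisomerase that untangles replicated DNA, had 9.5, 9.43 and 9.0 on day 3, against 6.27, 6.74 and 7.19 on day 1, a rise of 2.58 ± 0.22 (1.75 by a second probe set). Both sets of arrays were clear of each other, and in both genes the third day 1 array was the highest of its group. Prc1, which bundles microtubules of the central spindle, rose by 2.49 ± 0.18, and the kinase Cdk1 by 2.45 (chosen after its value was seen, as the catalytic partner of the B cyclins). The smallest called change was that of the G1 cyclin gene Ccne1 (0.41, also chosen after its value was seen, and not called without the second day 1 array). Replication genes followed at smaller sizes: 17 of 22 rose and none fell, median 0.75. Tk1 (thymidine kinase) rose by 1.85 ± 0.23 (0.36 and 1.30 by other probe sets), the polymerase subunit Pole2 by 1.28 ± 0.17, Gins1 of the replicative helicase by 1.21 ± 0.15, the methylation maintenance factor Uhrf1 by 1.13 ± 0.33 and the helicase subunit Mcm5 by 1.03 ± 0.15. Leaving out any 1 array left 26 to 27 cell cycle members and 17 to 19 replication members that rose.

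Many promoters of such genes are known to carry a CCAAT box, bound by the factor NF-Y, and a cell cycle homology region (CHR), bound by complexes that silence the genes in resting cells. Promoters of 23 of the 28 members were found in the RefSeq table of the rat build GRCr8, from 250 bases before to 50 after the annotated start. On either strand 15 of the 23 (65.2%) held TTTGAA, against 18.1% of all 27457 promoters of that length, and 18 (78.3%) held CCAAT, against 37.7%. A match is a description of these letters and no test of binding. Ccnb2 (chr8:79981609-79981908, minus strand) and Top2a (chr10:84473044-84473343, minus strand) are printed because they are the second largest rise of all and the topoisomerase named above. Capitals mark the 2 motifs, written TTTGAA or TTCAAA and CCAAT or ATTGG according to strand. No match overlaps another in these 2 sequences.
Ccnb2: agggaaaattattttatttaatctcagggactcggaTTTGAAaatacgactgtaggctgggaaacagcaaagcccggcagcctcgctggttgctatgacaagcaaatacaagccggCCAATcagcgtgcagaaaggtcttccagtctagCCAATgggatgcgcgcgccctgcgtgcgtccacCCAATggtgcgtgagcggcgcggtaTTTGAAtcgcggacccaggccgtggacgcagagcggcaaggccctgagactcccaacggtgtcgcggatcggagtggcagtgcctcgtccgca
Top2a: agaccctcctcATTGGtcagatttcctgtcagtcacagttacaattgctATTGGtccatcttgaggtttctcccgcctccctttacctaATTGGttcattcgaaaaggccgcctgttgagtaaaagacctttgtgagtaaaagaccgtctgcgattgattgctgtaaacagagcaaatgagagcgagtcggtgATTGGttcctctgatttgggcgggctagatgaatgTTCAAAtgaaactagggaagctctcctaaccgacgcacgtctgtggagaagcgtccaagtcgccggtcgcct
In Ccnb2 the 3 CCAAT boxes start 134, 101 and 68 bases before the annotated start and 1 of its 2 TTTGAA matches 43 bases before it. In Top2a the 4 CCAAT matches lie on the other strand, the nearest starting 57 bases before the annotated start and the TTTGAA match 22 bases before it.

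Genes that mark microglia rose, and for P2ry12 and Gpr34 the day 1 arrays had been below normal cord. Of 11 tested members of the homeostatic microglia list 10 rose and none fell (median 1.09), against 18.7% and 14.5% of all genes. P2ry12, the ADP receptor that marks resting microglia, had 11.13, 10.72 and 10.98 on day 3, against 9.04, 9.53 and 9.43 on day 1 and 10.26, 9.72 and 10.18 in normal cord. Every day 1 array thus lay below the normal arrays and every day 3 array above them. The change was 1.61 ± 0.18 (adjusted p = 6.63e-10), and a second probe set gave 1.81. Gpr34, a lysophospholipid receptor of microglia, showed the same order with 9.85, 9.52 and 9.52 on day 3, against 6.82, 7.83 and 7.25 on day 1 and 7.99 to 8.49 in normal cord. It rose by 2.33 ± 0.20. The receptor Csf1r, on which microglial survival depends, had 9.20 to 9.29 on day 1, against 8.90 to 9.22 in normal cord, and rose by 1.40 ± 0.11. The fructose transporter Slc2a5 rose by 1.26 ± 0.14 and the fractalkine receptor Cx3cr1 by 1.16 ± 0.16.

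Phagocyte and lysosome genes rose in 16 of 29 members (median 0.57), against 18.7% of all genes. In this list 1 member, Cd14, fell (-0.57, named after its value was seen, and not called without the first or the third array of either day), against 14.5% of all genes. Without the second day 1 array 2 members fell. The mean level of this list was 11.10 to 11.30 on day 3, 10.41 to 10.56 on day 1 and 8.76 to 8.96 in normal cord, so day 1 was already well above the uninjured level. Mmp12 had 7.71, 8.38 and 7.84 on day 3, against 5.11, 4.98 and 5.03 on day 1 and 4.63 to 5.08 in normal cord. Its day 1 arrays lay close to the normal range. Cd68, a lysosomal glycoprotein of macrophages, had 10.37, 11.12 and 10.72 on day 3, against 8.65, 8.19 and 8.84 on day 1, and rose by 2.18 ± 0.23. Trem2, the lipid-sensing receptor of microglia and macrophages, had 9.36, 9.85 and 9.84 on day 3, against 7.26, 7.90 and 7.48 on day 1, where it was still around the normal level of 7.42 to 7.77. It rose by 2.14 ± 0.19, and its second probe set gave 2.07. Gpnmb (a lysosomal membrane glycoprotein) rose by 1.42 ± 0.13 and cathepsin Ctsz by 1.15 ± 0.14. Spp1 (osteopontin) rose by 0.71 ± 0.21, a call that ended without the second day 1 array (0.56, adjusted p = 0.0605).

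Complement genes rose in 9 of 12 members, with none falling (median 0.72), against 18.7% and 14.5% of all genes. The 3 chains of C1q, which starts the classical pathway, moved alike: C1qa by 0.79 ± 0.10, C1qb by 0.82 ± 0.12 and C1qc by 0.95 ± 0.14. C1qc had 12.27, 12.55 and 12.44 on day 3, against 11.34, 11.52 and 11.56 on day 1 and 8.70 to 9.40 in normal cord. Properdin (Cfp), which stabilises the alternative pathway, rose by 0.88 ± 0.18 (0.49 by a second probe set) and the anaphylatoxin receptor C5ar1 by 0.85 ± 0.24. In the list of Toll-like receptors and NF-kappaB regulators, 5 of 19 rose and 3 fell (median 0.11), close to the shares of all genes. The 5 largest called changes were rises of Tlr8 (1.72 ± 0.26), the co-receptor Ly96 (0.97 ± 0.22) and Tlr2 (0.89 ± 0.25), and falls of 2 inhibitors that NF-kappaB itself induces (Nfkbiz -1.06 ± 0.24, Nfkbia -0.84 ± 0.25). With most members not called, they give no direction for the list. A second probe set of Nfkbiz gave 0.04, and without the first day 1 array Nfkbia was at -0.60 with adjusted p = 0.0966 and 1 member of the list fell.

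Genes that take up, store or export lipid rose in 11 of 18 members, and 1 fell (median 0.62), against 18.7% and 14.5% of all genes. Fabp4 had 8.33, 9.49 and 8.74 on day 3, against 5.90, 5.82 and 5.77 on day 1 and 4.03 to 4.43 in normal cord. Its second day 3 array was the highest, and the groups did not overlap. Pltp, which transfers phospholipid between lipoproteins, rose by 1.42 ± 0.15, the cholesterol-esterifying enzyme Soat1 by 1.16 ± 0.18 and the cholesterol exporter Abca1 by 0.98 ± 0.14. Apoc1, a lipoprotein component, had 7.15, 8.92 and 8.91 on day 3, against 7.08, 7.50 and 7.1 on day 1. The first day 3 array sat among the day 1 arrays, and the rise of 1.10 ± 0.41 was not called without any 1 of 4 of the arrays (0.80 and adjusted p = 0.188 without the second day 3 array). The member that fell was Plin2, a lipid droplet coat protein (-0.46, named after its value was seen, and not called without the first or the third day 1 array or the third day 3 array). Without the first day 3 array, 3 members of the list fell.

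Genes of cholesterol synthesis went the other way. Of 21 members 15 fell and none rose (median -0.57), against 14.5% of all genes. The mean level of the list was 9.90 to 10.03 on day 3, 10.32 to 10.55 on day 1 and 10.55 to 10.80 in normal cord. Stard4, a sterol carrier of the cytosol, had 7.86, 8.09 and 7.80 on day 3, against 8.91, 8.69 and 9.25 on day 1, and fell by 1.03 ± 0.11 (adjusted p = 1.29e-10). Its other probe sets gave -0.52 and -0.45. Insig1, the sterol-sensing brake on SREBP processing, had 10.64, 10.26 and 10.30 on day 3, against 11.40, 10.98 and 11.41 on day 1, and fell by 0.86 ± 0.11. Day 1 was close to the level of normal cord for both genes (8.63 to 8.91 and 11.14 to 11.50). The fatty acid desaturase Scd fell by 0.85 ± 0.15, the isoprenoid enzyme Idi1 by 0.81 ± 0.14 and Fdft1, which commits the pathway to sterols, by 0.78 ± 0.10. Of 16 members with a promoter in the RefSeq table none held TCACNCCAC, a sterol response element, against 1.13% of all promoters. With letters this rare, finding none among 16 promoters cannot show that these genes lack such elements.

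Matrix genes of fibroblasts rose in 18 of 28 members and fell in none (median 0.77), against 18.7% and 14.5% of all genes. Col1a1, a chain of type I collagen, had 10.03, 11.37 and 10.56 on day 3, against 8.47, 8.66 and 8.87 on day 1 and 8.01 to 8.52 in normal cord. The lowest day 1 array was within the normal range, and the second day 3 array was the highest. Col1a1 rose by 1.99 ± 0.38 (adjusted p = 5.38e-05, and 1.89 by a second probe set), and the other chain, Col1a2, rose by 1.62 ± 0.31. Tagln, an actin-binding protein of contractile cells, had 11.82, 12.04 and 11.66 on day 3, against 9.32, 9.54 and 9.66 on day 1, where it was close to its normal level (9.01 to 9.52). It rose by 2.33 ± 0.18, the matrix protein periostin (Postn) by 2.06 ± 0.48 and the collagen cross-linker Loxl2 by 1.80 ± 0.37. Leaving out 1 array left 12 to 17 members that rose, fewest without the second day 3 array, when 1 member also fell.

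Basement membrane genes, which serve vessels and the pial surface, rose in 11 of 15 members with none falling (median 0.65). For this list and the next, the shares of all genes were 18.7% risen and 14.5% fallen. Without the second day 1 array or the second day 3 array 7 rose. Col15a1 rose by 1.24 ± 0.23, the nidogens Nid2 and Nid1 by 1.05 ± 0.27 and 0.85 ± 0.19 (Nid1 by 0.21 on a second probe set), and the laminin chains Lama4 and Lama2 by 0.97 ± 0.22 and 0.85 ± 0.23. Of 25 endothelial and pericyte genes 11 rose and 3 fell (median 0.33). Ocln, a tight junction protein, had 8.79, 8.71 and 8.73 on day 3, against 7.27, 7.47 and 7.67 on day 1 and 7.89 to 7.97 in normal cord, and rose by 1.27 ± 0.12 (0.68 by a second probe set). The apelin receptor Aplnr rose by 1.5 ± 0.21 (0.18 by a second probe set), the receptor kinase Tie1 by 1.13 ± 0.19, the blood-brain barrier transporter Slco1a4 by 1.13 ± 0.19 and von Willebrand factor (Vwf) by 1.09 ± 0.22. The members that fell were the lipid transporter Mfsd2a (-0.63), the VEGF receptor Flt1 (-0.46) and the glucose transporter Slc2a1 (-0.33), the first 2 named after their values were seen. The call of Flt1 ended without the third day 3 array, that of Slc2a1 without the first or the third day 1 array or the second or the third day 3 array, and 5 members fell without the second day 1 array.

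The segment was taken with its meninges, and meningeal genes were examined beside the matrix genes. Col1a1 belongs to both the meninges list and the fibroblast list. Of 11 members of the meninges list 6 rose and 1 fell (median 0.68), against 18.7% and 14.5% of all genes. The mean level of the list was 9.23 to 9.42 on day 3, 8.66 to 8.91 on day 1 and 7.74 to 8.04 in normal cord. Without Col1a1, 5 of the other 10 rose. Aldh1a2, which makes retinoic acid in meninges, had 9.80, 10.16 and 9.73 on day 3, against 8.85, 8.92 and 9.04 on day 1 and 6.5 to 7.45 in normal cord. It rose by 0.96 ± 0.19, the GABA transporter Slc6a13 by 0.92 ± 0.24 and the gap junction gene Gjb2 by 0.73 ± 0.18. Itih2, a hyaluronan-binding protein of serum and meninges, rose by 0.78 ± 0.29, but without the first day 1 array the change was 0.55 with adjusted p = 0.218. The member that fell was Ptgds (prostaglandin D synthase, -0.26, named after its value was seen), and its call ended without the third day 3 array. The part of more meningeal tissue on an array in the matrix changes was not tested.

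Ligands and receptors of the TGF-beta family rose in 8 of 19 members and fell in 2 (median 0.25), against 18.7% and 14.5% of all genes. The receptor Tgfbr1 had 12.03, 11.74 and 11.83 on day 3, against 10.35, 10.73 and 10.78 on day 1 and 10.89 to 11.22 in normal cord, a rise of 1.25 ± 0.11, while its second probe set gave 0.14. Bmp7 rose by 1.06 ± 0.19 and Tgfb2 by 0.85 ± 0.13 (0.24 by a second probe set). The activin subunit Inhba fell by 1.34 ± 0.22 (8.98, 9.46 and 9.09 on day 3, against 10.52, 10.55 and 10.47 on day 1), with -0.23 from a second probe set, and Bmp2, named after its value was seen, fell by 0.80. Without the second day 3 array 5 members rose, and the matrix protein Tgfbi was at 0.86 with adjusted p = 0.0607, against 1.09 ± 0.31 with all arrays.

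Among proteases and their inhibitors 6 of 19 rose and 2 fell, against 18.7% and 14.5% of all genes. Apart from Mmp12, Mmp19 rose by 1.35 ± 0.16, the gelatinase Mmp2 by 0.88 ± 0.24 (-0.10 by a second probe set) and the plasminogen activator Plau by 0.93 ± 0.29, which lost its call without the second array of either day. Stromelysin Mmp3 ran against these: it had 7.23, 7.35 and 7.49 on day 3, against 9.25, 8.52 and 8.70 on day 1, and fell by 1.47 ± 0.35. Timp1, an inhibitor of metalloproteinases, fell by 0.59 (named after its value was seen), but not without the first or the third day 1 array or the first day 3 array. Without any of these 3 arrays 1 member of the list fell.

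Cytokine and chemokine genes of the first day fell. Of 22 matched members of the early cytokine and CXC chemokine list 15 were tested, and a member switched on only early entered the test through its day 1 level. Among these 8 fell and 1, the interferon-induced chemokine Cxcl11, rose (1.09, named after its value was seen), and the median was -0.57. Over all genes tested 14.5% fell and 18.7% rose. Cxcl2, a neutrophil attractant, had 5.81, 5.73 and 6.03 on day 3, against 10.78, 8.46 and 8.64 on day 1 and 4.51 to 4.86 in normal cord. Cxcl1, which acts on the same receptor, had 7.63, 7.97 and 7.92 on day 3, against 11.74, 9.62 and 9.98 on day 1. In both genes the first day 1 array was the highest, yet the groups stayed apart with the other two. They fell by 3.44 ± 0.62 and 2.61 ± 0.46. Cxcl3 fell by 2.00 ± 0.29, with -2.40 to -0.02 over its other 4 probe sets. The interleukin gene Il1b depended on 1 array: it had 6.84, 7.22 and 7.06 on day 3, against 10.60, 7.59 and 7.73 on day 1. Its fall of 1.6 ± 0.60 was 0.62 with adjusted p = 0.499 without the first day 1 array, and the call also ended without any 1 day 3 array. Without the first day 1 array 5 members of the list fell, and without the first day 3 array 2 rose. Outside this list, the acute-phase gene Saa3 had 5.61, 6.07 and 5.69 on day 3, against 9.81, 7.59 and 7.68 on day 1, and fell by 2.57 ± 0.51 to within its normal range or just beyond it (5.53 to 5.79). Cxcl13, a B cell attractant, had 6.58, 6.88 and 6.43 on day 3, against 9.5, 8.98 and 8.96 on day 1, and fell by 2.52 ± 0.51.

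Activation of many of these promoters is known to pass through kappaB sites. Among members of the list, tested or not, 16 had a promoter in the RefSeq table, and 10 of them (62.5%) held GGAANNNCC on either strand, against 18.3% of all 27457 promoters. The promoters of Il6 (chr4:5894526-5894825), Cxcl2 (chr14:17467206-17467505) and Cxcl1 (chr14:17479272-17479571), all on the minus strand in GRCr8, are printed because these genes had the largest falls of the list. Capitals mark the matches, which read GGNNNTTCC when they lie on the other strand.
Il6: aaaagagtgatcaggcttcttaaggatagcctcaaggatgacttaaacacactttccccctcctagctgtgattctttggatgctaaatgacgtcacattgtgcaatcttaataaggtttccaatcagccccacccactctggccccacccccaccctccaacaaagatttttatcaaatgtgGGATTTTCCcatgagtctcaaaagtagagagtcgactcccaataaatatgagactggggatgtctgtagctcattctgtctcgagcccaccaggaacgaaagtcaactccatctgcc
Cxcl2: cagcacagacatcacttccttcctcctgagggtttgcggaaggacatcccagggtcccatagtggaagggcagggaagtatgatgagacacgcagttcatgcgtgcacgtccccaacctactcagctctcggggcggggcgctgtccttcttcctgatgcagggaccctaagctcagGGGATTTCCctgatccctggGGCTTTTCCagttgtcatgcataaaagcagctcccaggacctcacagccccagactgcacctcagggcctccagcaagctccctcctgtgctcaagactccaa
Cxcl1: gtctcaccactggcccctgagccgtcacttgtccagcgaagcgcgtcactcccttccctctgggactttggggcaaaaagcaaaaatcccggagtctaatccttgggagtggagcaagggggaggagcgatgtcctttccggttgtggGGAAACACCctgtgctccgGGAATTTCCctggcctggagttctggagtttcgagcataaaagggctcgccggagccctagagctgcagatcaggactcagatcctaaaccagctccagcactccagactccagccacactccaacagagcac
The match in Il6 starts 67 bases before the annotated start, those in Cxcl2 start 73 and 53 bases before it, and those in Cxcl1 start 102 and 83 bases before it. As above, a match says nothing of what binds there in these animals.

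Of 11 CC chemokine genes tested 3 fell and none rose (median -0.33), against 14.5% and 18.7% of all genes. Ccl2, which draws monocytes, had 10.07, 10.95 and 10.81 on day 3, against 12.19, 11.59 and 11.42 on day 1 and 4.47 to 5.56 in normal cord. It fell by 1.12 ± 0.30 and was still far above the normal level on day 3. Ccl20 had 5.13, 5.85 and 5.71 on day 3, against 9.54, 6.65 and 7.40 on day 1, and its fall of 2.30 ± 0.52 was 1.46 with adjusted p = 0.0346 without the first day 1 array. The macrophage chemokine Ccl3 fell by 1.13 ± 0.42, but without that array it was at -0.57 with adjusted p = 0.388, and it was not called without any 1 of the day 3 arrays either.

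Genes of neutrophils did not move as 1 group: 3 of 11 fell and 2 rose (median 0.07), against 14.5% and 18.7% of all genes. Il1r2 had 6.56, 6.70 and 6.72 on day 3, against 10.25, 9.60 and 9.5 on day 1 and 4.40 to 4.56 in normal cord. Cxcr2, the receptor of Cxcl1 and Cxcl2, had 5.56, 5.61 and 5.61 on day 3, against 6.99, 6.31 and 6.00 on day 1, and fell by 0.84 ± 0.20 to its normal level (5.59 to 5.73). S100a8, an abundant calcium-binding protein of neutrophils, had 7.14, 9.5 and 9.36 on day 3, against 11.45, 10.94 and 10.57 on day 1. The fall of 2.32 ± 0.81 (adjusted p = 0.0233) was not called without the first day 3 array, the lowest of the 6 (-1.56, adjusted p = 0.191), or the first day 1 array (-2.09, adjusted p = 0.0912). Slpi lost its call without the same arrays (-1.25 with adjusted p = 0.0572, and -1.34 with adjusted p = 0.0521). Ncf1, an NADPH oxidase subunit shared with macrophages, rose by 0.93 ± 0.18 and the receptor Csf3r by 0.75 ± 0.24. Csf3r was not called without the second array of either day, when 1 member of the list rose.

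Immediate early genes, transcribed within minutes of a stimulus, fell in 7 of 24 tested members with none rising (median -0.33). Over all genes 14.5% fell and 18.7% rose. Fosl1, a partner of Jun proteins, had 7.22, 7.49 and 7.40 on day 3, against 8.83, 8.24 and 8.70 on day 1 and 6.29 to 6.41 in normal cord, and fell by 1.22 ± 0.20. Zfp36, which destabilises cytokine mRNA, fell by 0.78 ± 0.19, Junb by 0.61 ± 0.15, Myc by 0.56 ± 0.15 and the phosphatase Dusp5 by 0.59 ± 0.19. Without the third day 1 array 4 members fell, and Dusp5 was not among them. Stress genes fell in 6 of 18 members (median -0.21). The small heat shock protein Cryab fell by 0.93 ± 0.14, with 12.39, 12.69 and 12.83 on day 3, against 13.59, 13.67 and 13.43 on day 1, back among the normal arrays (12.40 to 12.88). Srxn1, an Nrf2 target, fell by 0.77 ± 0.12 (-0.94 and -0.02 by other probe sets). Metallothionein Mt2A (-0.49 ± 0.20), the chaperone Hspb8 (-0.38 ± 0.10) and thioredoxin reductase Txnrd1 (-0.30 ± 0.11) lost their calls without the first day 1 array, when 3 members fell.

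Glucocorticoid-induced genes fell in 9 of 14 members and rose in 1 (median -0.75, the lowest of the lists), against 14.5% and 18.7% of all genes. Pdk4, a brake on glucose oxidation, had 10.18, 10.10 and 10.30 on day 3, against 11.66, 11.36 and 11.48 on day 1 and 9.22 to 9.51 in normal cord. It fell by 1.31 ± 0.17, and its second probe set gave -0.34. The cell cycle inhibitor Cdkn1a fell by 1.14 ± 0.18, the glucocorticoid receptor co-chaperone Fkbp5 by 1.12 ± 0.24 (-1.33 by its second probe set) and the EGF receptor inhibitor Errfi1 by 0.97 ± 0.22. The member that rose was Fam107a (0.85 ± 0.17). Between 7 and 9 members fell whichever array was left out.

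Of 17 clock genes 2 rose and 4 fell (median -0.08), near the 18.7% and 14.5% of all genes. Dbp (0.82 ± 0.18) and Per3 (0.69 ± 0.15, and 0.10 by a second probe set), both clock outputs, rose to levels close to normal cord, and Npas2 (-1.0 ± 0.18) and Nfil3 (-0.73 ± 0.15) fell. Bmal1, at -0.36 ± 0.14, was not called without the first or the third day 1 array or the second day 3 array, and 2 members fell without the first day 1 array. In the unfolded protein response list 3 of 17 rose and 4 fell, also near these shares (median -0.09). The stress transcription factor Atf4 fell by 0.76 ± 0.10 (11.46, 11.27 and 11.16 on day 3, against 12.25, 11.93 and 12 on day 1), and its targets Chac1 and Ddit3 by 0.85 ± 0.20 and 0.55 ± 0.20. The folding enzyme Pdia6 rose by 0.45 ± 0.08 and the chaperone cofactor Sdf2l1 by 0.46 ± 0.16. Without the first day 1 array 1 member rose, and neither Ddit3 nor Sdf2l1 was called; 1 member rose also without the second day 3 array. Of 18 hypoxia genes 5 fell and 2 rose, with a median of -0.02 (Pdk1 0.27 and Eno1 0.20, named after their values were seen). Of the 5 that fell, the mitophagy receptor Bnip3 (-0.29 ± 0.08) kept its call whichever array was left out, whereas Ankrd37 (-0.57 ± 0.17), Vegfa (-0.40 ± 0.15), Egln3 (-0.33 ± 0.13) and Slc2a1 (-0.33 ± 0.13) did not. Without the first day 1 array 1 member fell and 1 rose, none rose without the second day 1 array, 1 rose without the first day 3 array, 3 fell without the third day 1 array or the first day 3 array, and 2 fell without the third day 3 array.

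Of 21 reactive astrocyte genes 4 rose and 5 fell (median 0.02), counts near the 18.7% and 14.5% of all genes. The mean level of this list was 10.52 to 10.74 on day 3 and 10.52 to 10.81 on day 1, against 8.37 to 8.43 in normal cord. Lcn2, a secreted siderophore-binding protein, had 9.71, 10.50 and 10.81 on day 3, against 12.06, 12.03 and 12.10 on day 1, and fell by 1.72 ± 0.45. Steap4, a metalloreductase, fell by 1.19 ± 0.25. Serpina3n (-1.07 ± 0.38) was at -0.93 with adjusted p = 0.107 without the first day 1 array, and also lost its call without the third array of either day. Among the genes that rose were intermediate filament genes. Vim had 14.29, 14.18 and 14.03 on day 3, against 13.16, 13.44 and 13.59 on day 1 (0.77 ± 0.10), Nes rose by 0.75 ± 0.19, and Gfap by 0.20 (named after its value was seen, and not called without the second day 1 array or the first day 3 array). The number that fell was 2 without the first or the third day 1 array and 3 without the first or the third day 3 array.

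Of 17 genes of astrocyte homeostasis 4 rose and 3 fell (median 0.01), again near the 18.7% and 14.5% of all genes. Aldh1l1, a folate enzyme, had 8.74, 8.78 and 8.91 on day 3, against 8.18, 8.28 and 8.29 on day 1 and 9.33 to 9.74 in normal cord, a rise of 0.56 ± 0.13 that left it below normal. Mlc1 of perivascular end-feet rose by 0.54 ± 0.12, the connexin gene Gja1 by 0.53 ± 0.12 (other probe sets -0.24 to 1.19) and the glutamate transporter Slc1a3 by 0.51 ± 0.10 (other probe sets -0.06 to 0.63). The amino acid transporter Slc7a10 was at -0.49 ± 0.19 and lost its call without the first or second array of either day, and 1 member fell without the second array of either day. Tenascins and proteoglycans rose in 6 of 19 and fell in 1 (Acan, -0.34, named after its value was seen, and not called without the first or second day 1 array or the first or the third day 3 array). Ncan (neurocan), which restrains axon growth, had 8.58, 8.45 and 7.98 on day 3, against 6.85, 7.24 and 7.36 on day 1, and rose by 1.19 ± 0.25. Bcan rose by 0.55 ± 0.16 and Ptprz1 by 0.44 ± 0.11. Tnc (tenascin C) had 10.23, 10.76 and 10.20 on day 3, against 9.54, 8.26 and 9.18 on day 1, and its rise of 1.40 ± 0.39 was 1.04 with adjusted p = 0.0625 without the second day 1 array. Tnn (tenascin N) had 5.82, 8.79 and 6.55 on day 3, against 5.17, 5.17 and 4.91 on day 1, and without the second day 3 array its 1.97 ± 0.65 was 1.10 with adjusted p = 0.235.

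Neuronal genes fell. Of 20 tested members of the neuron list 15 fell and none rose (median -0.48), against 14.5% and 18.7% of all genes. The mean levels of the list on day 1, given above, lay between those of day 3 and normal cord. Elavl2, an RNA-binding protein of neurons, had 10.46, 10.30 and 10.42 on day 3, against 11.31, 11.24 and 11.20 on day 1 and 11.19 to 11.57 in normal cord, and fell by 0.86 ± 0.16 (-1.02 and -0.25 by other probe sets). Elavl4 fell by 0.78 ± 0.18, the surface glycoprotein Thy1 by 0.69 ± 0.15, the calcium sensor Vsnl1 by 0.59 ± 0.15 and the heavy neurofilament Nefh by 0.58 ± 0.14. The neuron members that fell numbered 8 without the first day 1 array. Genes of synaptic transmission fell in 11 of 20 tested members with none rising (median -0.53). The GABA receptor subunits Gabrb2 and Gabra5 fell by 0.94 ± 0.20 and 0.88 ± 0.18, the AMPA receptor subunit Gria4 by 0.88 ± 0.13 and the glycine receptor subunit Glrb by 0.82 ± 0.12. Other probe sets gave -0.33 for Gabrb2, -0.60 and -0.32 for Gria4, and -0.85 and -0.0033 for Glrb. Slc32a1, which loads GABA and glycine into vesicles, fell by 0.73 ± 0.22, a call lost without the first array of either day (-0.61 with adjusted p = 0.0713, and -0.60 with adjusted p = 0.0661).

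Ion channels followed, with 11 of 18 falling and none rising (median -0.50). For these and the motor neuron genes below, the shares of all genes were 14.5% fallen and 18.7% risen. Scn1a, a sodium channel of inhibitory and motor neurons, had 9.92, 9.75 and 9.94 on day 3, against 11.03, 10.81 and 10.81 on day 1 and 11.37 to 11.69 in normal cord. The 3 groups did not overlap, and the fall between the days was 1.01 ± 0.14 (adjusted p = 1.2e-07). The potassium channel genes Kcnc1, Kcnh1 and Kcna2 fell by 0.85 ± 0.18, 0.77 ± 0.11 and 0.71 ± 0.16 (Kcna2 by 0.06 on a second probe set), and the sodium channel beta subunit Scn4b by 0.70 ± 0.15. Motor neuron genes fell in 5 of 11, and 1, the GDNF receptor Gfra1, rose (0.24, named after its value was seen, and not called without the first or second array of either day). Chodl, a marker of fast motor neurons in mice, had 10.06, 9.92 and 9.90 on day 3, against 11.15, 10.85 and 10.86 on day 1, and fell by 0.99 ± 0.19. Esrrg fell by 0.77 ± 0.16. Of the cholinergic genes, Slc5a7 (-0.70 ± 0.21) lost its call without the second day 3 array (adjusted p = 0.0511) and Chat (-0.65 ± 0.19) without the first day 1 array (adjusted p = 0.055). Slc18a3 (-0.42 ± 0.17) lost it without any 1 of 4 arrays, the first or the third of day 1 or the first or the second of day 3 (adjusted p = 0.102 to 0.186). Without the first day 1 array or the second day 3 array 3 members fell.

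Genes of growth and housekeeping processes shifted by less. Ribosome biogenesis genes fell in 8 of 16 (median -0.27), for example the nucleolar GTPase Gnl3 by 0.54 ± 0.11, Wdr12 by 0.39 ± 0.08 and Nop56 by 0.33 ± 0.08, and 3 fell without the first day 1 array and 4 without the third array of either day. Proteasome genes fell in 12 of 26 and rose in 1 (median -0.21). Psmb2 fell by 0.51 ± 0.13, Psmc1 by 0.37 ± 0.10 and Psmc5 by 0.36 ± 0.09, while the interferon-induced activator subunit Psme1 rose by 0.42 ± 0.13 (-0.15 by a second probe set), a call lost without the second array of either day. Proteasome genes that fell numbered 5 without the first day 1 array and 6 without the first day 3 array. Respiratory chain genes fell in 6 of 26 (median -0.26), against 14.5% of all genes. The 5 largest of these falls were Ndufa5, Ndufv2 (-0.45), Cox5a (-0.44), Ndufa4 (-0.40) and Atp5f1c (-0.27). None of the 5 kept its call without the first array of either day. Ndufa5 had 9.21, 10.17 and 10.22 on day 3, against 10.71, 10.68 and 10.21 on day 1, so that the groups overlapped, and its change was -0.67 ± 0.22. No respiratory gene fell without the first day 1 array, without the first day 3 array 1 did and without the second day 1 array 2 did.

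Oligodendrocyte and precursor genes differed from each other. Of 20 myelin genes 4 rose and 2 fell (median -0.01), close to the 18.7% and 14.5% of all genes. Gal3st1, which makes the myelin lipid sulfatide, rose by 0.81 ± 0.10 (9.15, 9.15 and 9.19 on day 3, against 8.13, 8.65 and 8.28 on day 1), still below normal cord (9.48 to 9.63). Nkx6-2 (0.43 ± 0.17) and Enpp2 (0.34 ± 0.13) lost their calls without the first or the third array of day 1 or the third array of day 3. Nkx6-2 lost its call also without the second day 3 array, and Enpp2 without the first. In the list 1 member rose without the first or the third day 1 array or the third day 3 array, and 2 without the first day 3 array. Aspa (-0.55 ± 0.14), which breaks down N-acetylaspartate, lost its call without the second day 1 array and Mobp (-0.27 ± 0.08) without the second day 3 array, and 1 member fell without either. Precursor genes rose in 5 of 9 with none falling (median 0.39): Sox6 by 1.09 ± 0.26 (0.06 by a second probe set), Sox4 by 0.59 ± 0.12 (other probe sets -0.05 to 0.76), and Lhfpl3 and Cspg4 (the NG2 proteoglycan) by 0.40 ± 0.12 and 0.39 ± 0.14. Cspg4 lost its call without the first or the third day 1 array or the first or the second day 3 array. Lhfpl3 lost its call without the second day 1 array or the first day 3 array. Without the first day 3 array 3 members rose.

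Among growth factors 5 of 15 tested rose and 2 fell, against 18.7% and 14.5% of all genes. Igf1, a growth factor made by microglia and macrophages in injured tissue, had 10.66, 11.42 and 11.42 on day 3, against 8.95, 8.71 and 9.47 on day 1 and 9.12 to 9.49 in normal cord. It rose by 2.12 ± 0.22 (adjusted p = 1.5e-10), and its other 2 probe sets gave 1.97 and 2.01. The binding proteins Igfbp5 (1.35 ± 0.33, other probe sets 0.22 to 1.79) and Igfbp2 (0.94 ± 0.14) rose with it. Bdnf had 6.72, 6.58 and 6.96 on day 3, against 8.07, 7.53 and 7.92 on day 1 and 6.70 to 6.97 in normal cord, so that it fell to its normal level by 1.09 ± 0.16, with -0.15 from a second probe set. The neurotrophin receptor Ngfr rose by 0.94 ± 0.31, but not without the second array of either day, when 3 members rose. Fgf1, named after its value was seen, fell by 0.49.

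Genes that neurons switch on after axon injury rose in 2 of 22 and fell in 4, below or near the background in both directions. The neuropeptide Gal (galanin) had 10.19, 11.02 and 10.89 on day 3, against 11.41, 11.64 and 11.79 on day 1, and fell by 0.91 ± 0.24. Smad1 fell by 0.42 ± 0.10, and -0.01 came from its second probe set. Gadd45a (-0.46 ± 0.16) and Stmn2 (-0.45 ± 0.15) lost their calls without the first day 1 array, when 2 members fell, whereas 7 fell without the second day 1 array. Sprr1a rose by 0.70 ± 0.17 (0.46 with adjusted p = 0.0507 without the second day 3 array), and Csrp1, named after its value was seen, by 0.23. The Csrp1 call ended without the first or the third array of either day, and 1 member rose without the first day 1 array or any 1 day 3 array. Of 20 guidance genes 4 rose and 2 fell (median 0), no more than near the 18.7% and 14.5% of all genes. Those that rose were Sema3b by 0.82 ± 0.21, the receptor Nrp1 by 0.79 ± 0.18, Ntn1 by 0.67 ± 0.18 (not without the second day 3 array, and -0.02 and 0.04 on its other probe sets), and Sema6a by 0.46 ± 0.15 (other probe sets -0.23 to 0.35). Sema3e fell by 0.59 ± 0.15, and so did Slit2 (-0.31, named after its value was seen). Slit2 was not called without the first or second array of either day, when 1 member fell.

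Of 13 class I pathway genes 7 rose and none fell (median 0.33), among them the peptide transporters Tap2 (0.74 ± 0.15) and Tap1 (0.59 ± 0.13, and -0.09 by a second probe set) and the peptide-loading factor Tapbp (0.58 ± 0.09). Class I heavy chain genes share sequence, and probe sets can read several: RT1-S3 (0.72 ± 0.20), RT1-N3 (0.44 ± 0.16) and RT1-M3-1 (0.33 ± 0.08) rose, RT1-N3 not without the third day 1 or first day 3 array, and RT1-A3, RT1-CE5, RT1-CE12, RT1-CE16 and RT1-T24-4 were between -0.15 and 0.75 and not called. RT1-CE10, which differs widely between groups of animals in this series, had 6.93, 7.20 and 6.93 on day 3, against 6.78, 6.65 and 6.71 on day 1 and 6.46 to 6.66 in normal cord, a difference of 0.31 ± 0.25 that was not called. Of 11 class II presentation genes 4 rose and 7 were not called (median -0.04). Those that rose were led by the lysosomal reductase Ifi30 (1.08 ± 0.13) and the peptide exchange factors RT1-DMb (0.71 ± 0.11) and RT1-DMa (0.46 ± 0.12). Of 26 interferon response genes 9 rose and 17 were not called (median 0.32). Examples of those that rose were the protease Usp18 (0.93 ± 0.24) and the antiviral Mx1 (0.94 ± 0.27). Without the second day 1 array 5 rose and 1 fell, without the second day 3 array 4 rose and 1 fell, and without the third day 1 array 4 rose. Without the third day 1 array or the second day 3 array Mx1 was not called either (0.70 with adjusted p = 0.0707, and 0.78 with adjusted p = 0.0513). Of 10 lymphocyte genes tested 2 rose, near the 18.7% of all genes. Cd8a had 6.27, 7.95 and 7.48 on day 3, against 4.8, 4.87 and 5.49 on day 1 and 4.36 to 4.77 in normal cord, a rise of 2.18 ± 0.33, with 0.26 to 2.32 over its other probe sets. Lck, named after its value was seen, rose by 0.42, though not without the first day 1 array or the second day 3 array. The T cell genes Cd8b and Cd3g were at 0.56 ± 0.23 and 0.54 ± 0.27 and not called, and rat macrophages are known to carry Cd8a as well.

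**Figure D2:**
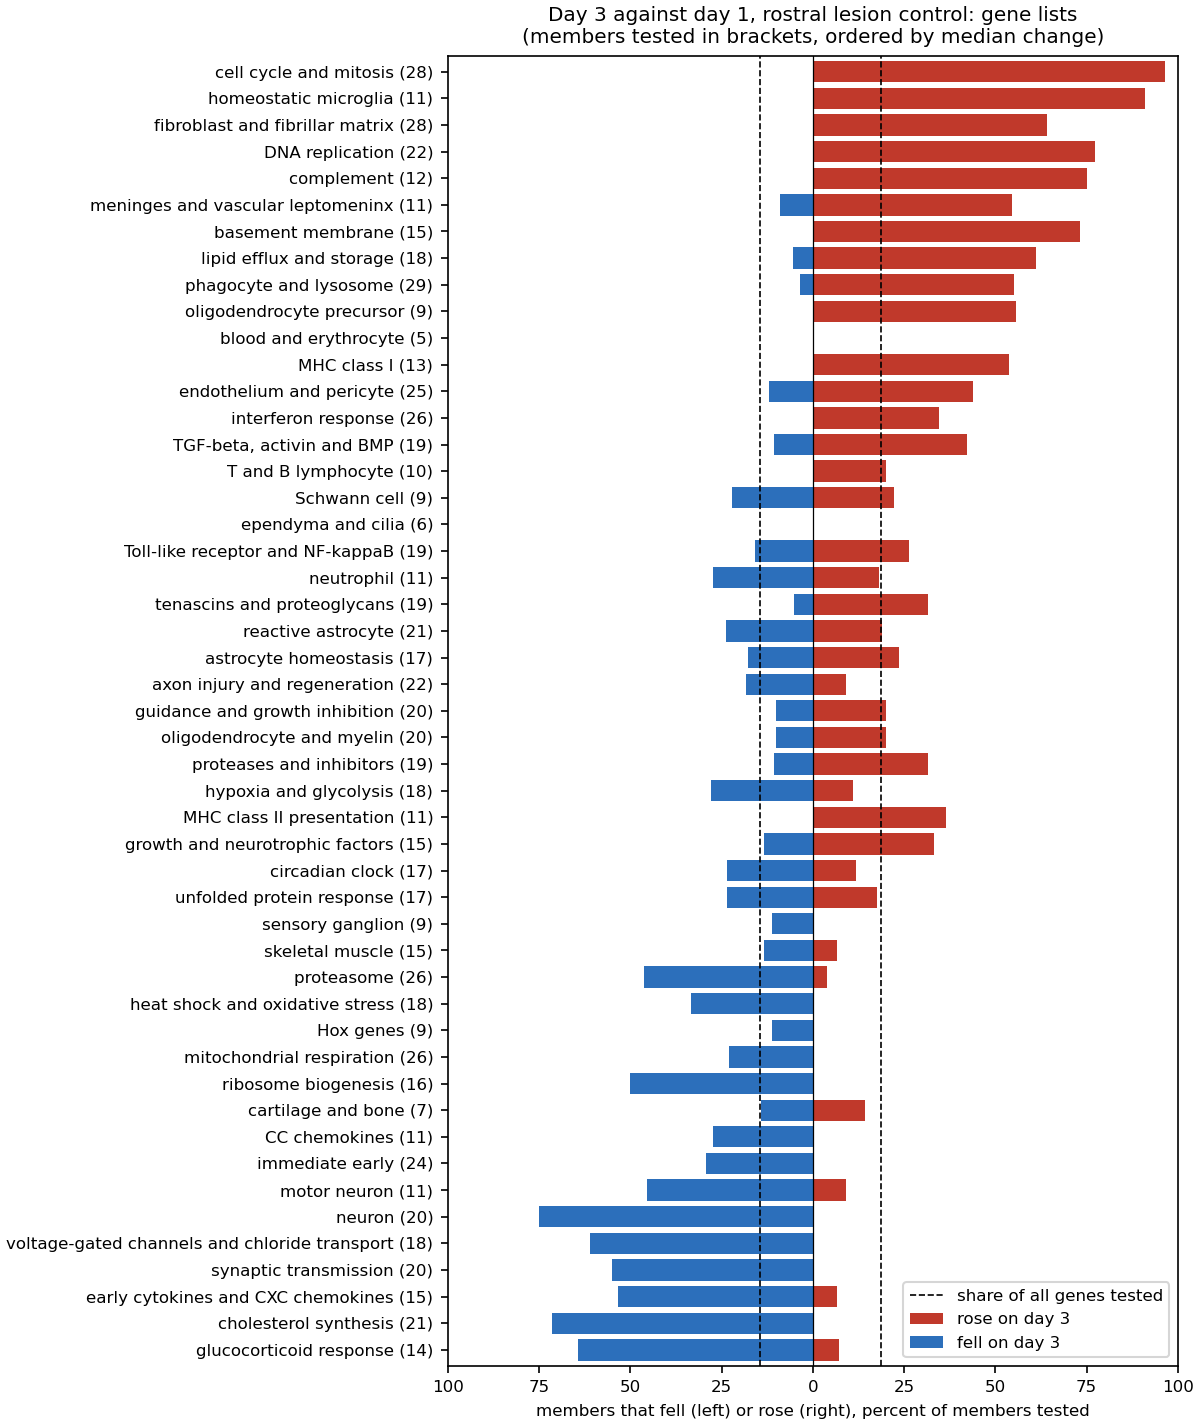
Share of the tested members of each gene list that rose (right) or fell (left) on day 3 against day 1 in the rostral lesion control (percent, x axis), with the number tested in brackets and the shares of all genes (18.7% and 14.5%) as dashed lines. The cell cycle list has 27 of 28 members on the right and the cholesterol list 15 of 21 on the left.

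Markers of tissues that could come along with a dissection were looked at in the same way, beside the 18.7% and 14.5% of all genes that rose and fell. Schwann cell genes of nerve roots rose in 2 of 9 (Ngfr, and Pmp22 at 0.38 ± 0.15) and fell in 2 (Mpzl2 at -0.54 ± 0.19 and S100b at -0.20 ± 0.06), and none of these was called without the second day 1 array or the second day 3 array. With 1 of the other arrays left out, 1 or 2 members rose and 1 or 2 fell. The mean level of that list was 9.36 to 9.67 on day 3, 9.28 to 9.35 on day 1 and 8.77 to 9.57 in normal cord. Of 9 sensory ganglion genes 1 fell, the neuropeptide gene Tac1 (-0.66 ± 0.22), which dorsal horn neurons also express, and it was not called without the first day 1 array or the second day 3 array. Skeletal muscle genes rose in 1 of 15 (Tpm2, 1.66 ± 0.28, also a gene of smooth muscle, with -0.39 from a second probe set) and fell in 2 (Pvalb, -1.21 ± 0.31, also of interneurons, and Myh1, -0.56 ± 0.13). The muscle list averaged 5.97 to 6.53 on day 3, 6.33 to 6.66 on day 1 and 6.37 to 6.52 in normal cord. Erythrocyte and platelet genes were not called in any of 5, with 0.99 ± 0.55 for Alas2 and 0.73 ± 0.40 for Pf4. Ependymal genes were not called in any of 6, with Foxj1 at 0.18 ± 0.11. Cartilage and bone genes numbered 7, of which Spp1 rose and Acan fell, as given above with the arrays they depend on, and Col2a1 was at 0.43 ± 0.42.

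Hox genes, whose levels mark the position along the cord, were not alike on all arrays. Hoxd9 had 6.99, 6.95 and 6.96 on day 3, against 9.16, 7.05 and 7.29 on day 1 and 7.62, 10.47 and 9.08 in normal cord. Hoxa10 had 7.68, 7.75 and 7.77 on day 3, against 9.26, 8.30 and 8.32 on day 1 and 8.63, 10.78 and 9.58 in normal cord. The first day 1 array was the highest of its group in both. Neither change was called (-0.87 ± 0.38 with adjusted p = 0.0729, and -0.89 ± 0.38 with adjusted p = 0.0617), and 1 of 9 Hox genes fell, Hoxd8 (-0.23, named after its value was seen, and not called without the second day 1 array), while 2 fell without the third day 1 array. The mean level of the Hox list was 7.70 to 7.94 on day 3, 8.02 to 8.37 on day 1 and 8.11 to 9.18 in normal cord. The part of the level of dissection in the changes that rest on the first day 1 array was not tested. Nor was its part in any difference from normal cord.

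Later arrays of the same arm show where days 1 and 3 lie in time, as levels with no test. Ccnb2 averaged 5.69 in normal cord, 6.45 on day 1, 9.73 on day 3, 8.21 on day 10, 8.04 on day 20, 7.37 on day 30, 6.77 on day 60 and 6.5 on day 90, so day 3 was the highest of the days measured. Fcrl2 averaged 6.15 on day 1 and 10.14 on day 3, and then stayed between 10.44 and 10.79 from day 10 to day 90. Il6 averaged 3.95 in normal cord, 9.65 on day 1, 5.58 on day 3 and 4.15 to 4.74 on the later days. Col1a1 averaged 8.67 on day 1, 10.65 on day 3 and 12.01 on day 10, and Mmp12 averaged 5.04, 7.98 and 10.24 on these days. Scn1a averaged 10.88 on day 1, 9.87 on day 3 and 10.56 on day 90. Insig1 was lowest on day 60, at 9.74, and Tagln, at 11.84, was highest on day 3.

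**Figure D3:**
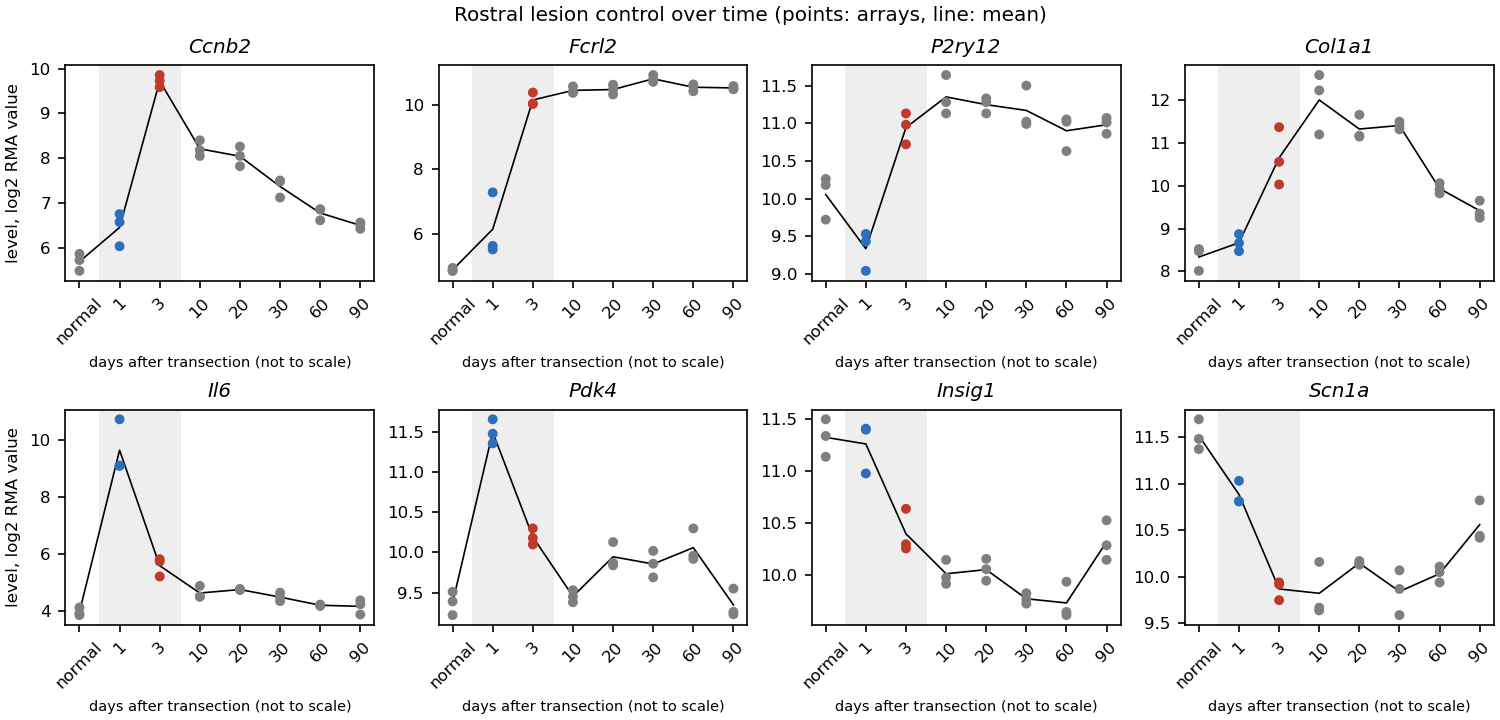
Levels of 8 genes in normal cord and on 7 days after transection in the rostral lesion control (log2 RMA value, y axis; points are arrays, the line joins means, and days are not to scale). Ccnb2 peaks on day 3, Il6 on day 1, and Fcrl2 stays near its day 3 level through day 90.

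The same interval was measured in the segment caudal to the gap, on other arrays. Whether these pools held the same rats as the rostral ones is not given. The test of the segment difference treats all arrays as independent. There 2783 of 11479 genes rose (24.2%) and 2419 fell (21.1%). Of the 2165 rostral rises 1804 also rose caudally, which is 83.3% of the rostral and 64.8% of the caudal rises, and of the 1677 rostral falls 1348 also fell, 80.4% and 55.7% of the 2 sets. Opposite calls came to 2 and 1. Across the 11442 genes in both fits the changes correlated at r = 0.88, a description across genes that share 1 RMA normalization. Fcrl2 changed by 3.99 ± 0.21 rostrally and 4.13 ± 0.19 caudally, Ccnb2 by 3.28 ± 0.21 and 3.57 ± 0.20, and Il6 by -4.07 and -3.21. The difference between the segments was called for 8 genes, 4 with a positive rostral minus caudal difference (0.0345% of 11590) and 4 with a negative one (0.0345%). At an unadjusted p under 0.05 there were 1121 (9.67%). No member of the 49 lists was among the 8.

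The segment differences were in genes outside the main groups. Spry2, an inhibitor of growth factor receptor signals, had 10.31, 9.86 and 9.82 on day 3, against 10.57, 10.10 and 10.71 on day 1 rostrally, and 9.18, 9.5 and 8.95 on day 3, against 10.81, 10.29 and 11.04 on day 1 caudally. Its fall was larger caudally, and the difference was 1.04. Slc22a8 (an organic anion transporter) and Aox1 (aldehyde oxidase) rose less rostrally, by 0.59 ± 0.13 and 0.48 ± 0.13, with differences of -0.93 and -0.87. With 1 array left out at a time, 0 to 19 genes had a called positive difference and 0 to 13 a negative one, and the rostral rise of Aox1 was not called without the first rostral day 1 array.

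The same segment and interval were also measured in both tube arms, again on other arrays. In tube alone 1624 genes rose (14.1%) and 2093 fell (18.1%), and in NT-3 tube 1935 rose (16.7%) and 1413 fell (12.2%). Of the rises without an implant 1066 (49.2%, and 65.6% of the tube alone rises) were also rises in tube alone and 1169 (54.0%, and 60.4% of the NT-3 tube rises) in NT-3 tube. Of the falls 885 (52.8% and 42.3%) were shared with tube alone and 663 (39.5% and 46.9%) with NT-3 tube. Called in opposite directions were 83 rises and 19 falls in tube alone, and 23 and 25 in NT-3 tube. The changes correlated across genes at r = 0.69 with each arm. Cell cycle genes rose in all 3 arms, in 27 of 28 members without an implant, 25 in tube alone and 27 in NT-3 tube, with medians of 2.12, 1.83 and 2.53. Homeostatic microglia genes rose in 10 of 11, 11 and 10 (medians 1.09, 1.39 and 1.13), in the same order.

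Cholesterol genes fell in all 3 arms, in 15 of 21 members without an implant, 21 in tube alone and 18 in NT-3 tube (medians -0.57, -0.91 and -0.73). The difference itself, lesion control minus tube arm, was called for 10 of them against tube alone, 9 positive and 1 negative, and for 2 against NT-3 tube, both positive. Fibroblast matrix genes rose in 18 of 28 without an implant, 13 in tube alone and 3 in NT-3 tube (medians 0.77, 0.51 and 0.13), and basement membrane genes in 11 of 15, 2 and 2. The difference was called for none of the 28 fibroblast members against tube alone and for 2 against NT-3 tube, and for none and 1 of the basement membrane members. Over all genes a positive difference was called for 563 genes (4.87%) and a negative one for 202 (1.75%) against tube alone, and for 301 (2.61%) and 251 (2.17%) against NT-3 tube. The NT-3 tube counts were not stable: a fit on the compared groups alone gave 21 and 13. They were 184 and 137 without the second NT-3 tube day 1 array, 143 and 155 without the third, 144 and 100 without the second lesion control day 1 array, 186 and 160 without the first lesion control day 3 array, 185 positive without the second, and 160 negative without the first lesion control day 1 array. Against tube alone, the fit on the compared groups gave 272 and 83, and 125 negative differences were called without the second lesion control day 1 array. Interferon and class I genes were among those with a called difference in the main fit. Of these 2 lists, 16 of 26 and 8 of 13 differed from tube alone and 6 and 8 from NT-3 tube, all with positive differences. RT1-CE10 moved with them. It had 7.41, 7.54 and 7.42 on day 3, against 10.99, 10.66 and 10.82 on day 1 in tube alone, and 7.26, 9.19 and 7.97 on day 3, against 10.39, 10.63 and 11.36 on day 1 in NT-3 tube, whereas the lesion control arrays lay between 6.65 and 7.20 on both days. Its part in the differences between arms was not tested.

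Pcdh20 differed from both tube arms in its day 1 level. It had 6.83, 6.62 and 6.62 on day 3, against 7.07, 7.82 and 6.71 on day 1 in tube alone, and 6.70, 6.82 and 6.72 on day 3, against 7.62, 7.37 and 6.54 on day 1 in NT-3 tube. Without an implant the day 1 arrays lay between 9.65 and 10.02 rostrally and between 9.02 and 9.95 caudally. The day 3 levels of all 4 groups lay between 6.38 and 7.12. The difference of the changes was -2.41 against tube alone (adjusted p = 1.31e-05) and -2.49 against NT-3 tube (adjusted p = 3.3e-05). Il6 fell in every arm, by 4.07 without an implant, 2.24 in tube alone and 3.11 in NT-3 tube, and the difference from tube alone was called (-1.83, adjusted p = 0.0181). The second day 3 array of tube alone was high in several inflammatory genes, with 9.08 for Il6 against 6.77 and 7.44 on the others, 11.7 for Saa3 against 8.60 and 7.15, and 11.37 for Cxcl13 against 10.06 and 7.58. Igf1 rose by 2.12 without an implant and by 1.04 in tube alone, a difference of 1.09 with adjusted p = 0.0266. Pdk4 fell by 1.31 without an implant, 0.48 in tube alone and was at -0.30 in NT-3 tube, with differences of -0.83 (adjusted p = 0.0252) and -1.01 (adjusted p = 0.00864). Tnc differed from NT-3 tube by 2.13 (adjusted p = 0.0173), and Lcn2 from tube alone by -2.08 (adjusted p = 0.0384).

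**Figure D4:**
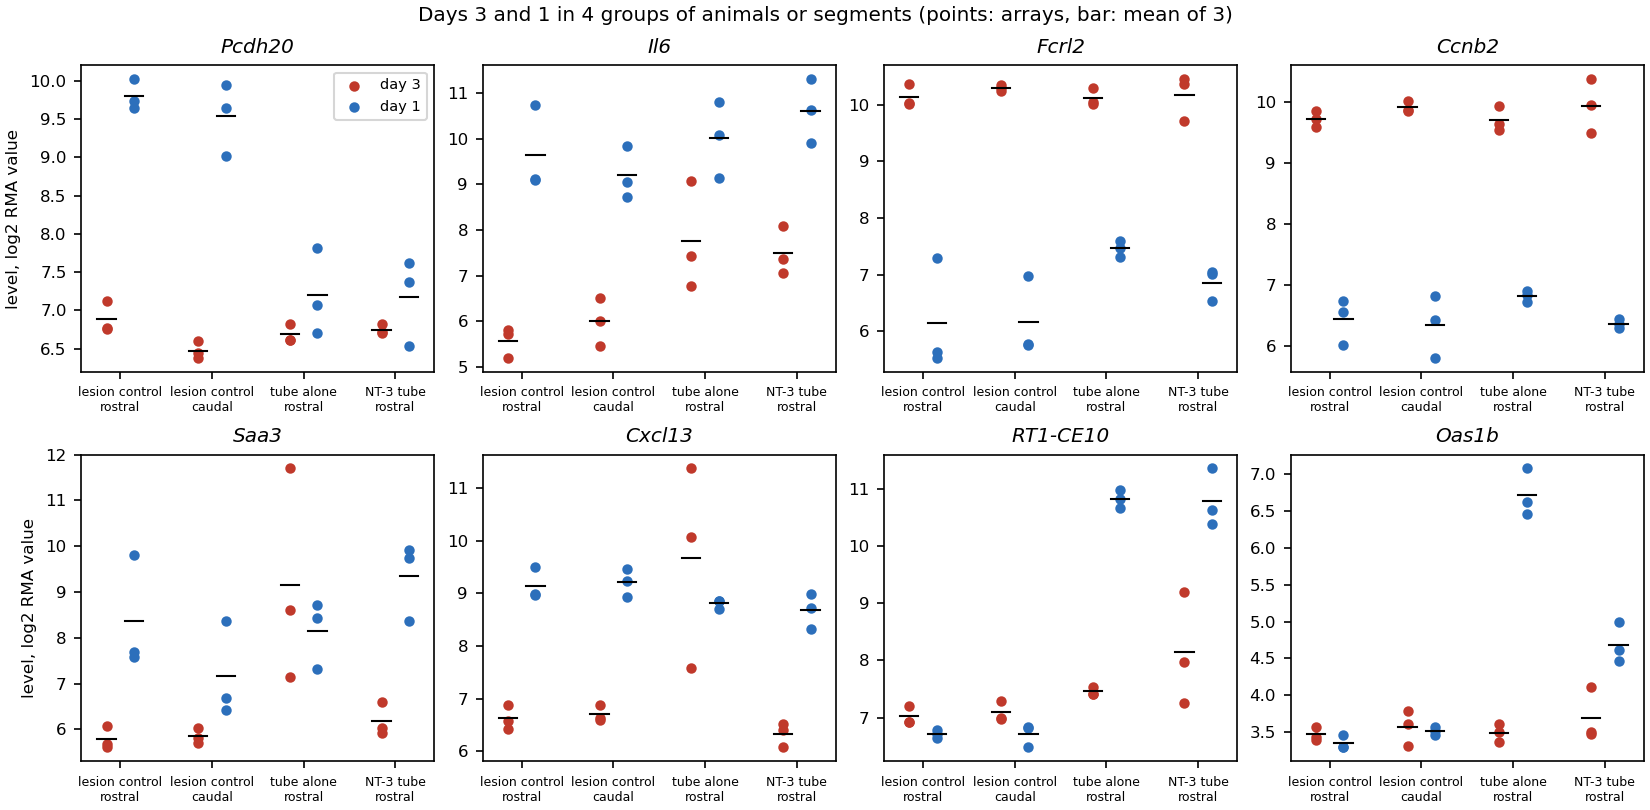
Levels of 8 genes on day 3 (left of each pair) and day 1 in the rostral and caudal lesion control and in the rostral segment of both tube arms (log2 RMA value, y axis; points are arrays, bars are means of 3). Pcdh20 is above 9 on day 1 in both lesion control segments and at 7.82 or below in the tube arms, and RT1-CE10 is above 10 on day 1 in both tube arms.

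**Figure D5:**
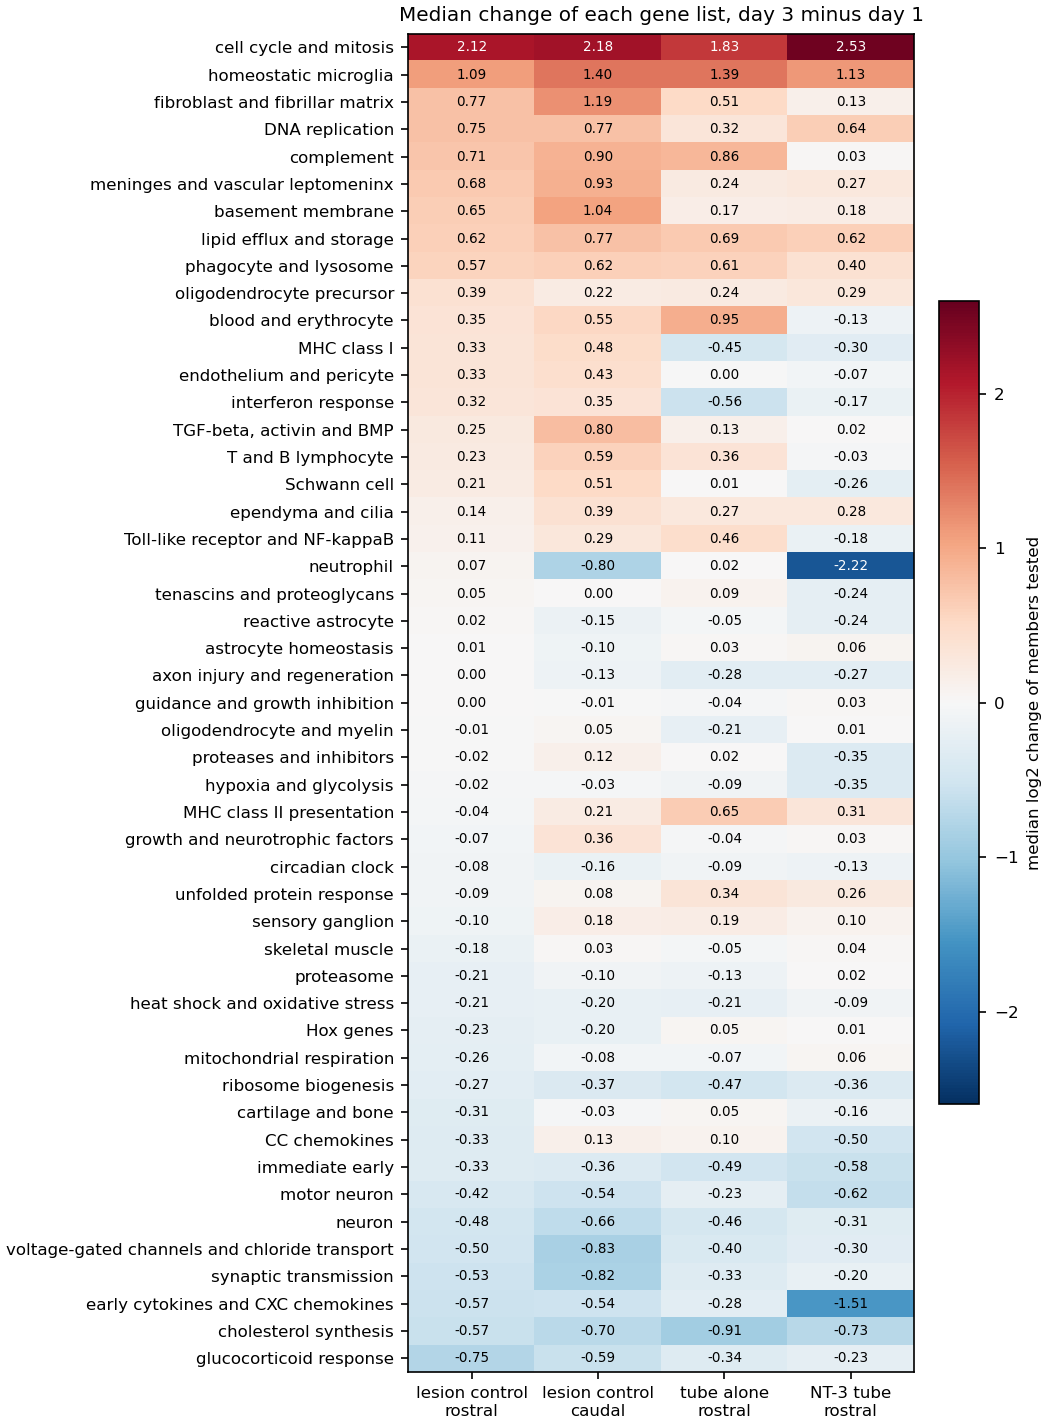
Median log2 change, day 3 minus day 1, of the tested members of each gene list in the rostral lesion control, caudal lesion control, tube alone and NT-3 tube, coloured from blue (lower on day 3) to red (higher on day 3). Cell cycle medians lie between 1.83 and 2.53 in all 4 columns, while class I medians are 0.33 and 0.48 in lesion control and -0.45 and -0.30 in the tube arms.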

How the data were processed

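RNA was measured on Affymetrix Rat Genome 230 2.0 arrays. The deposited table of 172 arrays holds log2 RMA values made by the authors with Affymetrix Expression Console, per the submitters' processing notes, with array medians of 7.1 to 7.25. RMA includes a quantile normalisation, so only shifts relative to the other genes can be seen. Of 31099 probe sets 20832 had 1 gene symbol, 436 several and 9831 were not used. Genes with several probe sets (4526 of 14218) were read from the probe set with the highest mean. Genes were tested if a group mean reached the 40th percentile of all values (6.55). limma 3.58.1 (R 4.3.3; lmFit, contrasts.fit, eBayes) was fitted over the rostral and normal arrays with 1 mean per group, with Benjamini-Hochberg adjustment at 0.05, and likewise over the caudal arrays. A difference between comparisons was a contrast of the same kind. The scripts were tested on simulated data. Of 1009 entries in 49 gene lists 889 matched. The members and lists were chosen with earlier results of these data known. Named are the 12 largest called rises and 12 largest falls whose arrays did not overlap, the 5 largest called changes of each list (the 3 largest changes where fewer than 3 were called), the 5 largest called differences and the detected class I genes, and any other is said to be named after its value was seen. Alternatives covered the dim filter, normalisation, arrays in the fit, weights, a replicate block, probe set averaging and leaving out each array. Tables used Python 3.11.15, pandas 2.3.3, numpy 2.4.6 and scipy 1.17.1, and figures matplotlib 3.10.9.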

Additional observations from a re-analysis of the deposited data

Results flagged for a closer look

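The changes below differed between the lesion control and another comparison of the same interval by limma's test of the difference, with other arrays on each side. Whether rostral and caudal pools held the same rats is not given. No explanation was tested.

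Between the segments (rostral minus caudal, lesion control) the differences were -1.72 for Dmrtc1c1, 1.04 for Spry2, -0.93 for Slc22a8, -0.87 for Aox1 and 0.85 for Olfm1. Dmrtc1c1 was dim rostrally, with 5.06, 5.63 and 6.00 on day 3, against 4.78, 4.79 and 4.91 on day 1, and had 7.31, 6.58 and 7.61 on day 3, against 4.59, 4.74 and 4.81 on day 1 caudally. A group mean must reach 6.55 for a test, and the caudal day 3 mean of Dmrtc1c1 (7.17) did. So the group behind the difference could admit the gene. Olfm1, a secreted glycoprotein of neurons, had 11.25, 10.96 and 11.04 on day 3, against 11.07, 10.69 and 11.09 on day 1 rostrally, and 10.56, 10.74 and 10.39 on day 3, against 11.25, 11.33 and 11.27 on day 1 caudally.

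Against tube alone the differences were 3.67 for RT1-CE10, -3.57 for Saa3, -3.38 for Cxcl13, 3.34 for Oas1b, -2.93 for Siglec5, -2.41 for Pcdh20, -2.40 for Ccl20, -1.83 for Il6 and 1.33 for Fcrl2. Oas1b, an antiviral synthetase, had 3.44, 3.40 and 3.58 on day 3, against 3.30, 3.47 and 3.30 on day 1 in lesion control, and 3.50, 3.61 and 3.37 on day 3, against 6.46, 7.07 and 6.61 on day 1 in tube alone. In lesion control it lay far under the 6.55 that a group mean must reach for a test. The tube alone day 1 mean of Oas1b (6.71) was over it, so the group behind the difference could admit the gene. RT1-CE10 was high on the same tube alone day 1 arrays. Siglec5, a sialic acid receptor of leukocytes, had 8.25, 8.02 and 8.18 on day 3, against 6.64, 6.83 and 6.07 on day 1 in lesion control, and 8.62, 10.25 and 7.91 on day 3, against 4.09, 4.72 and 4.27 on day 1 in tube alone. Ccl20 had 6.89, 10.56 and 7.56 on day 3, against 8.80, 7.25 and 8.66 on day 1 in tube alone, and its second day 3 array there was also the highest for Saa3, Cxcl13 and Il6. Fcrl2 had 10.02, 10.05 and 10.29 on day 3, against 7.60, 7.47 and 7.32 on day 1 in tube alone.

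Against NT-3 tube the differences were 2.96 for RT1-CE10, 2.86 for Mmp8, 2.62 for Ccn1, 2.6 for Tubb1, 2.57 for Slfn4, -2.49 for Pcdh20 and 1.38 for Cxcl3. Mmp8, the neutrophil collagenase, had 5.34, 5.85 and 5.59 on day 3, against 6.22, 5.10 and 5.26 on day 1 in lesion control, and 5.08, 5.23 and 5.29 on day 3, against 7.0, 8.51 and 8.46 on day 1 in NT-3 tube. Its lesion control means (5.59 and 5.53) lay under the 6.55 that a group mean must reach for a test. The NT-3 tube day 1 mean of Mmp8 (7.99) was over it, so the group behind the difference could admit the gene. Ccn1, a matrix-associated signal protein, had 7.73, 7.83 and 8.24 on day 3, against 6.80, 6.41 and 7.36 on day 1 in lesion control, and 7.32, 8.66 and 7.81 on day 3, against 8.93, 9.5 and 10.00 on day 1 in NT-3 tube. Tubb1, the tubulin of platelets, had 9.18, 10.30 and 10.72 on day 1 in NT-3 tube, and Slfn4 had 10.06, 11.15 and 11.24.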

How the results depend on the processing

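Without an implant, the rostral counts (2165 rose, 1677 fell) stayed within 1.5 times of these values except without the first day 1 array (1066 fell), where fitted on the compared groups with a replicate block (1338 and 751) or at 2-fold or more (332 and 60). The fit on the compared groups alone gave 856 rises and 354 falls for NT-3 tube. Rostral minus caudal differences (4 positive, 4 negative) numbered 8 positive after a second quantile normalization, 7 negative with array weights, 0 and 0 in fits on those groups with or without the block, and 1 and 1 at 2-fold. Differences from tube alone (563 and 202) numbered 329 negative without the dim filter, 854 and 377 with array weights, 272 and 83 on those groups, 178 and 59 with the block added, and 88 and 31 at 2-fold. Those from NT-3 tube (301 and 251) numbered 188 positive with array weights, 21 and 13 on those groups, 1 and 2 with the block added, and 82 and 35 at 2-fold. Fits on fewer groups have fewer residual degrees of freedom; otherwise the cause was not tested. Leaving out 1 array gave 1645 to 2015 rises and 1066 to 1529 falls rostrally, 2441 to 2638 and 1935 to 2312 caudally, 1146 to 1638 and 1297 to 1953 in tube alone, 1509 to 1925 and 1015 to 1362 in NT-3 tube, and 0 to 19 and 0 to 13, 376 to 531 and 125 to 199, and 143 to 429 and 100 to 281 for the differences in the order above. Same-numbered arrays of the 2 days did not deviate together (r of -0.18, -0.01 and -0.21, and no array was closest to its own number), and the replicate block in the full fit gave 2174 rises and 1689 falls. A second quantile normalization gave 1892 and 2061, with a shift of the median gene of -0.04. Of the 253 named genes none changed sign between 2 fits of which at least 1 called it. Sign changes of genes called in neither fit were not counted. Signal near background limits dim genes such as Oas1b.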
